A study of Homo sapiens with 3 samples.

Results

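Immediate early genes are the first genes a cell switches on after a growth factor, a stress or a change of medium. Their levels were followed in HEK293 cells, an established line from human embryonic kidney. The series asked what loss of DICER1 does to transcript levels. Each of 3 libraries of poly(A) RNA came from transfected cells. There was 1 library of a DICER1 knockdown and 1 of a DROSHA knockdown, both by RNA interference, and 1 of a mock transfection. All of them, the mock included, came from a T-REx Flp-In derivative of HEK293 that carries a FLAG-tagged DICER1 transgene, so none is the unmodified line. T-REx lines hold a tetracycline-controlled expression system, and no label says whether it was switched on. Each title ends in 2.5d, which the labels leave unexplained.

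The gene set is a list of 10 symbols picked by name as immediate early genes: JUN, JUNB, JUND, FOS, FOSL1, EGR1, IER2, IER3, KLF6 and KLF10. Of these, 9 were matched by symbol among the 12040 genes of the deposited table, and the level of FOS was not analysed here. The table gives a level for each gene in 3 columns without names. A script found that 1 column served the authors as the denominator of both deposited fold changes, and it is called the denominator here. The other two are called the first and the second numerator. No column carries a label, so none is assigned to a knockdown or to the mock, and the comparisons are the first and the second numerator over the denominator. Fold changes are log2 ratios after 1 was added to each level. Each group has a single library, so no replicate error can be given, no significance test was run, and every value describes these libraries only.

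Immediate early genes need no new protein for their induction, since the factors that read their promoters are already present and are activated by kinases. Many of their products are transcription factors of short life, made from mRNAs of short life. JUN and FOS proteins pair through leucine zippers to form AP-1, which binds DNA at AP-1 and CRE sites. JUN proteins can pair with each other, whereas FOS proteins need a JUN partner. EGR1 and the KLF proteins bind GC-rich DNA through zinc fingers. DICER1 cuts miRNA precursors and DROSHA acts before it in the same pathway, and miRNAs shorten the life of the mRNAs they pair with.

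None of the 9 genes reached a 2-fold difference in either comparison. Of all genes, 0.341% did so in the first comparison against 0.831% in the second. Over the members, the median log2 fold change was -0.07 in the first comparison, where that of all genes was 0.03. In the second it was -0.02, where that of all genes was 0.01. In the first comparison 4 members were above 0 and 5 below, and in the second 3 were above and 6 below. Of all genes, 56.5% were above 0 in the first comparison and 51.1% were so in the second. At a lower bar of 1.5-fold, JUND alone was past it in the first comparison, upward, where 2.17% of all genes were past it in either direction. FOSL1 alone was past it in the second, downward, where 5.07% of all genes were. Every gene of the table has a denominator level above 1, which bears on FOSL1: its level was 1.37 there and 0.548 in the second numerator, and a gene with these levels exchanged would not be listed.

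**Figure D1:**
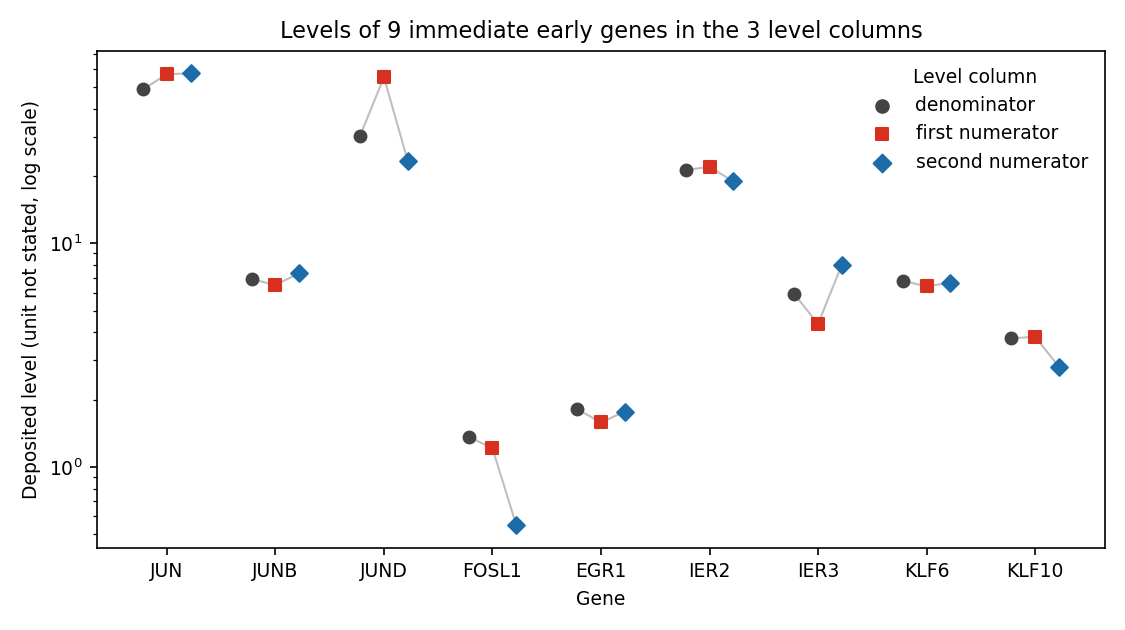
Deposited level of each gene (vertical axis, log scale, unit not stated) in the denominator (circle), the first numerator (square) and the second numerator (diamond), with 1 library per point and no error bar. JUND stands at 55.3 in the first numerator against 30.2 and 23.3, and FOSL1 at 0.548 in the second numerator against 1.37 and 1.21.

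The JUN family showed 3 different patterns. JUND, the JUN protein that resting cells also make in quantity, had a level of 30.2 in the denominator, 55.3 in the first numerator and 23.3 in the second. The first numerator was thus the highest of the libraries for JUND and the second the lowest. Its log2 fold change was 0.85 in the first comparison, the rank of 35 from the top among 12040 genes. Only 0.556% of all genes differed by as much in either direction, and 0.682% of the 1906 genes whose denominator level lay within 1.5-fold of that of JUND. In the second comparison JUND was at -0.36, and 16.5% of those genes of like level differed by as much.

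Between the numerators, JUND differed by 1.21 on the log2 scale, a comparison from which the denominator drops out. Before any adjustment for GC content it was the only member past 2-fold there, where 1.66% of all genes were. Past 1.5-fold stood JUND and IER3, in opposite directions, where 9.13% of all genes stood past it. JUND had the rank of 86 from the top of that difference and IER3, at -0.75, the rank of 140 from the bottom.

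JUN, the founding member and a strong activator, was at 48.8 in the denominator, 57.0 in the first numerator and 57.5 in the second. Both numerators were above the denominator by the same small step, with log2 fold changes of 0.22 and 0.23. In the first comparison 27.2% of all genes differed at least as much, and 36.6% did so for the second. These 2 values share the denominator library and are not independent of each other. JUNB, a weaker activator that can hold JUN in check, had levels of 6.91, 6.50 and 7.35, with log2 fold changes of -0.08 and 0.08. JUNB overlaps HOOK2 on the opposite strand in GENCODE release 29. The labels do not state strand-specific counting, so reads of such a pair cannot be told apart. HOOK2 itself was at 0.19 and 0.09.

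**Figure D2:**
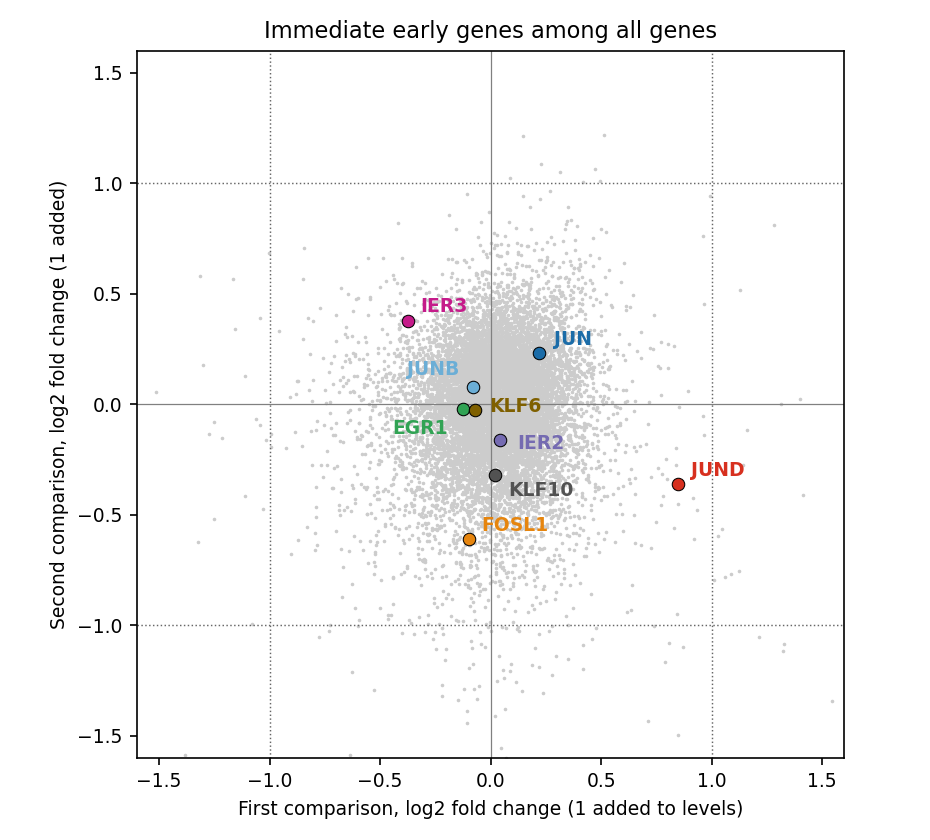
Log2 fold change of every gene in the first comparison (horizontal) and the second (vertical), in grey, with the 9 immediate early genes in colour and dotted lines at a 2-fold difference. The comparisons share their denominator library, and 17 genes lie outside the axes. JUND sits apart from the other 8 members at 0.85 and -0.36, IER3 lies opposite it at -0.37 and 0.38, and no member crosses a dotted line.

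The JUN family also differs in the DNA just before its start sites, shown here because these 3 related genes had different values. Each run is the 250 bases before the start in RefSeq (GRCh38.p14), 5′ to 3′ on the gene's strand. They lie at chr1:58784048-58784297 (JUN, minus strand), chr19:12791236-12791485 (JUNB, plus strand) and chr19:18281623-18281872 (JUND, minus strand). For JUN, GENCODE places the start further upstream, so this window falls inside its longest model. Capitals mark, on either strand, the full CRE palindrome (TGACGTCA), its shorter core (TGACG), the CCAAT box (CCAAT), the TATA box (TATAAA, in JUNB) and the jun1 and jun2 elements (TGACATCA and TTACCTCA, in JUN), through which AP-1 acts on the JUN promoter. The core lies within the full CRE.
JUN: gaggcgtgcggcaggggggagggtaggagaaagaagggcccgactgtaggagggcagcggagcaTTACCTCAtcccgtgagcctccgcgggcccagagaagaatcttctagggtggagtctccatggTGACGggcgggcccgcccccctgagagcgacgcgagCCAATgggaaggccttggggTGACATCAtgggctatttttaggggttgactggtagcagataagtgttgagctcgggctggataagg
JUNB: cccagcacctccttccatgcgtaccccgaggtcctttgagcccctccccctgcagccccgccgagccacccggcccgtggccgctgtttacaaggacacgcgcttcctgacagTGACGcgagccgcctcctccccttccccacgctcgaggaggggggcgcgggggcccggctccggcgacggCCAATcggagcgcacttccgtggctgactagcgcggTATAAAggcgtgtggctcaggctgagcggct
JUND: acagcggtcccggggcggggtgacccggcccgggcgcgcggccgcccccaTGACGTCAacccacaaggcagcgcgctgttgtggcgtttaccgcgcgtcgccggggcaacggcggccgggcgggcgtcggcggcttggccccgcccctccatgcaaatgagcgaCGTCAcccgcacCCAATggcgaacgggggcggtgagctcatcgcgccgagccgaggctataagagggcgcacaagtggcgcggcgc

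The RefSeq table holds promoters of 7 of the 10 listed genes, which are JUN, JUNB, JUND, EGR1, IER2, KLF6 and also FOS. JUND alone of these 7 held the full CRE, 200 bases before its start, with a further core at 86 bases. The core was in 6 of the 7 promoters, all but that of KLF6. The full CRE occurs in 1.84% of the 34796 promoter windows searched, each from 250 bases before to 50 after a start, and the core in 24.5%. These windows are not limited to measured genes. Among the 8633 genes of the table with a promoter window, 343 held the full CRE and 3574 the core. JUN held its jun1 element at 67 bases and its jun2 element at 186 bases before the start, letters found in 2.60% and 0.713% of all windows. KLF6 also held the jun1 letters, at 172 bases before its start. The AP-1 site (TGANTCA) was in none of the 7 promoters and in 7.73% of all windows. The TATA box was in JUNB and FOS, and in 11.6% of all windows. All 3 JUN family promoters held a CCAAT box, at 87 bases in JUN, 67 in JUNB and 74 in JUND, as did KLF6 and 34.6% of all windows. In the table, the 343 genes with a full CRE had median log2 fold changes of 0.05 and 0.03, against 0.03 and 0.02 over all 8633 genes with a promoter window. Whether the motif has a part in the JUND values was not tested. A match says only that these letters are present.

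JUN, JUNB and JUND are also genes without introns, a trait they share with IER2 in the transcript models used. JUND had the highest log2 fold change of the first comparison among 199 single-exon genes of the table, whose median was 0.05. The next of them was PAQR9, named after its value was seen, at 0.61. In the second comparison the median of the single-exon genes was 0.01. The 3 other intronless members stood at 0.22 (JUN), -0.08 (JUNB) and 0.04 (IER2) in the first comparison.

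GC content moved with the fold changes. Across 10 bins of genes ordered by transcript GC content, from poorest to richest, the median log2 fold change went from -0.08 to 0.16 in the first comparison and from 0.10 to -0.13 in the second. The JUND transcript (GRCh38 chr19:18279760-18281622, minus strand, 1863 bases) is 69.7% GC, and only 0.378% of the 10582 genes matched to a transcript are richer. The 50 genes within 1 percentage point of it had medians of 0.21 and -0.16, the same signs as JUND. JUND was 2nd from the top of those 50 in the first comparison and 13th from the bottom in the second. Of the 50, 35 were above 0 in the first comparison and below 0 in the second. With the medians of those 50 genes subtracted, an adjustment chosen after the data were seen, JUND was left at 0.64 and -0.20. Between the numerators JUND was then at 0.84, no longer past 2-fold. IER3, adjusted by genes of its own GC content, was at -0.91 there. JUNB, at 64.9% GC, was below its neighbours in GC in the first comparison (-0.24 after the subtraction) and above them in the second (0.21).

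**Figure D3:**
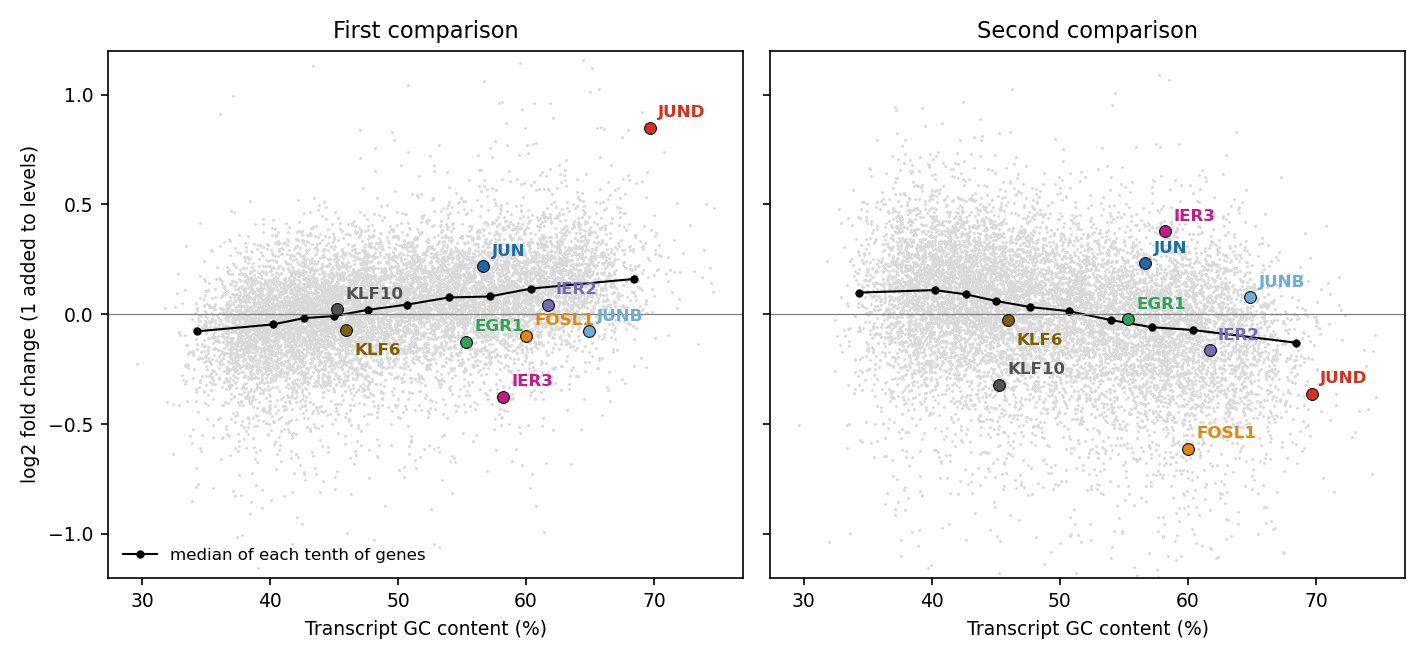
Log2 fold change (vertical) against transcript GC content in percent (horizontal) for all matched genes within the axes (grey) and the 9 members (coloured), in the first comparison (left) and the second (right). The black line joins the medians of 10 bins of genes, from -0.08 to 0.16 on the left and from 0.10 to -0.13 on the right, and JUND lies beyond the line in both panels.

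Neuronal marker genes moved in the same directions as JUND. All 5 measured of the 8 listed were above 0 in the first comparison, with a median of 1.05. In the second, 4 of the 5 were below 0, with a median of -0.57. Of all genes, 56.5% were above 0 in the first comparison. Above 0 in the first and below 0 in the second were 3169 of the 12040 genes. The summed level of the 5 markers was 49.4 in the denominator, 105.2 in the first numerator and 32.4 in the second. NEFH, NEFM and STMN2 of this list were not analysed here. The part of GC content and of these markers in the JUND values was not tested. By the distance over both fold changes, among the 2872 genes whose mean level lay within 2-fold of that of JUND, the 3 genes nearest to it were NEFL, SLC7A5 and DDIT4. NEFL, a neurofilament subunit and itself one of the neuronal markers, stood at 0.65 and -0.33. SLC7A5, an amino acid transporter, was at 0.64 and -0.29, and DDIT4, an inhibitor of mTORC1, at 0.96 and -0.14. These are likenesses over 3 libraries only.

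FOSL1, the FOS-related protein FRA1 and the only FOS family member measured among the 9, had levels of 1.37, 1.21 and 0.548. The second numerator was the lowest of these, and all of them were far under the median denominator level of the table, 9.55. Its log2 fold change was -0.10 in the first comparison against -0.61 in the second, where 4.45% of all genes differed by as much. Adding 1 shrinks ratios of such low levels: without it, the second numerator was 0.401 of the denominator, or -1.32 on the log2 scale. With 0.1 added in place of 1, FOSL1 was past 2-fold at -1.18, and with 5 added it was at -0.20. The same bound on the denominator applies to its neighbours in level, so a numerator of 1 or less could enter but a denominator of 1 or less could not. Of 1272 genes with a denominator level within 1.5-fold of that of FOSL1, 3.77% differed by as much as FOSL1 in the second comparison. Its transcript has 4 exons at GRCh38 chr11:65892220-65900526, minus strand, and is 60.0% GC. The depth of the libraries is unknown, so the counting error behind a level this low cannot be given.

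EGR1, a zinc finger factor switched on through serum response factor, was also low, at 1.81, 1.58 and 1.77. The libraries differed little, with log2 fold changes of -0.13 and -0.02, and as much was seen in 50.8% and 92.6% of all genes. The 150 bases before its RefSeq start (chr5:138465329-138465478 in GRCh38.p14, plus strand) are shown because they hold matches to the CArG box. Capitals mark the CArG box, to which serum response factor binds, at 105 and 83 bases before the start, and the CRE core at 135 and 66 bases.
EGR1: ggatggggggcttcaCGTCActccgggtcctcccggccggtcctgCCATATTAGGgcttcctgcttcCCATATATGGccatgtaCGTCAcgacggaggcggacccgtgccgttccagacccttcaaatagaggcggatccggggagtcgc

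Within the promoter windows searched, EGR1 alone of the 7 promoters held a CArG box, which 1.30% of all windows hold. Bases further upstream were not searched, so a CArG box there, in FOS or another member, would have been missed. The 124 genes of the table with a CArG box in the window had median log2 fold changes of 0.07 and 0.02. SRF, the gene of serum response factor itself, stood at 0.07 and -0.36. Its partners of the ternary complex, ELK1, ELK3 and ELK4, were at 0.32, 0.17 and -0.19 in the first comparison and at 0.08, -0.07 and 0.0049 in the second. These 4 genes are named for their role, after their values were seen.

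IER3, a small protein that protects cells from death and is no DNA-binding factor, had the reverse signs of JUND. In the first comparison it differed by less than JUND did. Its levels were 5.94, 4.35 and 8.02, the first numerator being the lowest library and the second the highest. The log2 fold changes were -0.37 and 0.38, and 8.42% and 16.3% of all genes differed by as much. IER3 and KLF6 each have 6 ATTTA pentamers in the 3′ UTR, the core of the AU-rich elements that give mRNAs a short life. KLF6 has 1 of the longer TATTTAT, and IER3 has 4. The IER3 stretch that holds 2 of its 4, at base 253 of the 3′ UTR, is shown with TATTTAT in capitals.
IER3: tgctcctaattaaTATTTATatgTATTTAT

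The IER3 transcript (GRCh38 chr6:30743199-30744554, minus strand, 2 exons) is 58.2% GC, and with the medians of genes of like GC subtracted its values were -0.47 and 0.44. IER3 overlaps IER3-AS1 on the opposite strand, and reads of the pair cannot be told apart without strand. IER2, a nuclear protein of growth factor response, was level across the libraries at 21.3, 21.9 and 18.9, with log2 fold changes of 0.04 and -0.16. It lies across from the unnamed transcript AC011446.2 in GENCODE release 29.

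KLF6 differed least of the 9 across the libraries. This zinc finger factor, which can restrain growth, had levels of 6.79, 6.41 and 6.66, a span of 1.06-fold from lowest to highest. KLF10, a factor induced by TGF-beta, was at 3.75, 3.82 and 2.80, so the second numerator alone was apart. Its log2 fold changes were 0.02 and -0.32, and 22.6% of all genes differed by as much as the latter. Re-centring on the median of all genes turned the sign of the former, to -0.0085, so no direction is given for it.

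The 3′ UTRs of the members were searched for the 7 bases that pair with the seed, bases 2 to 8, of 14 miRNAs of wide expression, because both knockdowns act on miRNA maturation. JUN, JUND and IER3 matched none of the 14 seeds, as did 34.7% of the 10466 genes with an annotated 3′ UTR. KLF6 matched 5 seeds in a 3′ UTR of 3543 bases, IER2 and KLF10 matched 4 each, FOSL1 matched 2, and JUNB and EGR1 matched 1 each. Printed here are the miRNAs matched by FOSL1, EGR1 and JUNB, with the seed in capitals, and then the sites, with the bases opposite the seed in capitals.
miR-19b-3p: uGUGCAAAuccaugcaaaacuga
miR-130b-3p: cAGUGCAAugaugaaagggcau
miR-92a-3p: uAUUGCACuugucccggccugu
miR-101-3p: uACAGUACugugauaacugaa
FOSL1, base 218 of the 3′ UTR, for miR-19b-3p: ctctagcacaaTTTGCACtaaatcagaga
EGR1, base 808 of the 3′ UTR, for miR-92a-3p: tggcttgacatGTGCAATtgtgagggaca
JUNB, base 376 of the 3′ UTR, for miR-101-3p: ctctctgcaccGTACTGTggaaaagaaac

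In FOSL1 the match to miR-130b-3p begins at base 219 and overlaps that to miR-19b-3p. FOSL1 with its overlapping matches was the lowest member in the second comparison, at -0.61, while the 1458 genes with a miR-19b-3p match had a median of 0.07 there and the 1572 with a miR-130b-3p match a median of 0.05. Across the table, genes with a match to 1 or more of the 14 seeds had medians of 0.03 and 0.03, and genes with none 0.05 and -0.02. The members with no match included the highest value of the first comparison (JUND, 0.85) and the lowest (IER3, -0.37). Whether seed matches have a part in any of these values was not tested. ATTTA was present in the 3′ UTR of 8 of the 9 members and of 69.3% of all genes, whose medians were 0.02 and 0.03, and the longer TATTTAT in 5 of the 9 and in 32.8%. For ATTTA, IER2 was the member without it.

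Around the 9 genes, 5 lists of related genes were looked at. None of their measured genes reached 2-fold in either comparison, where 0.341% and 0.831% of all genes did. Between the numerators, 1 leucine zipper factor and 1 KLF or SP factor were past 2-fold, where 1.66% of all genes were. Of the 30 measured among 39 other immediate early genes, 22 were above 0 in the first comparison against 17 in the second, with medians of 0.09 and 0.01, beside the 56.5% and 51.1% of all genes above 0. TRIB1, a pseudokinase of the same early response, was the highest in the first comparison at 0.72, with levels of 12.3, 20.9 and 14.9. HBEGF, a growth factor of the EGF family, was the lowest at -0.64, with levels of 2.48, 1.24 and 2.62. In the second comparison the ends were BTG2, an antiproliferative gene, at 0.36 and NR4A1, an orphan nuclear receptor, at -0.68.

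A list of other leucine zipper factors, 21 measured of 25 and not all of them partners of JUN or FOS, had medians of 0.12 and 0.01. CEBPB was the highest of them in the first comparison at 0.39 and CREB1 the lowest at -0.29. In the second, ATF6 stood highest at 0.38 and ATF5 lowest at -0.87. The remaining KLF and SP factors, 13 measured of 16, had medians of 0.13 and -0.0034. KLF11, a close relative of KLF10, was at 0.84 and -0.28, with levels of 3.52, 7.09 and 2.73, while KLF10 itself stood at 0.02 and -0.32. SP4 was the lowest in the first comparison at -0.23, and KLF4 the highest in the second at 0.29.

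The kinases and factors upstream, 28 measured of 29, had medians of 0.08 and -0.05. RPS6KA5, the kinase MSK1 that marks chromatin of immediate early genes, was the highest in both comparisons, at 0.36 and 0.65. NRAS was the lowest in the first at -0.40 and ARAF, a RAF kinase, in the second at -0.84. The 14 corepressors, ubiquitin ligases and decay factors, all measured, had medians of 0.08 and -0.02. ELAVL1, which stabilises AU-rich mRNAs, was the lowest in the first comparison at -0.48. ZFP36L1, which speeds their decay, was the highest in the first at 0.25 and the lowest in the second at -0.34. FBXW7, a ligase subunit that marks JUN for destruction, was the highest in the second at 0.51.

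**Figure D4:**
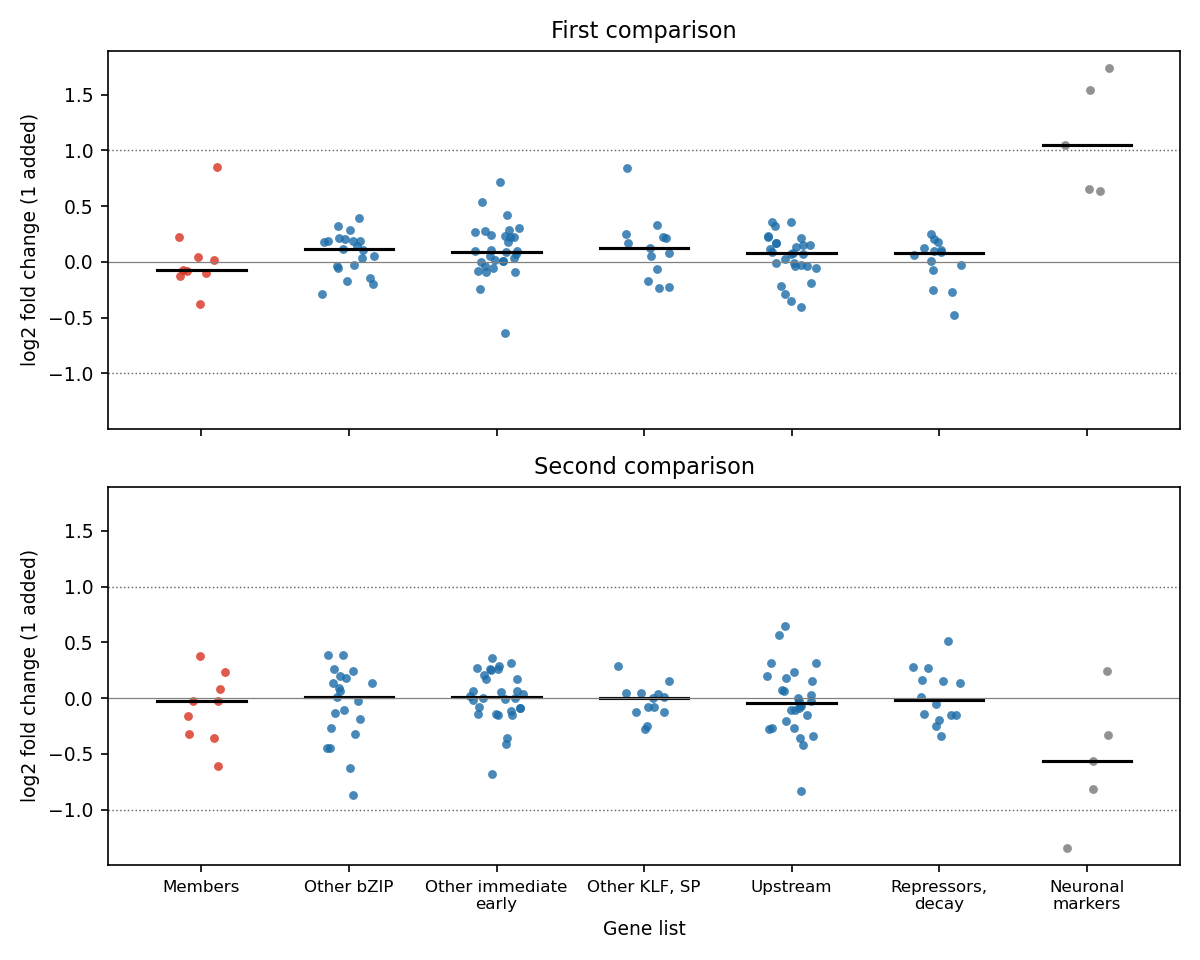
Log2 fold change (vertical) of each gene in the member set (red), in 5 lists of related genes (blue) and among neuronal markers (grey), in the first comparison (top) and the second (bottom), with a bar at each median and dotted lines at a 2-fold difference. Member medians are -0.07 and -0.02, those of related lists lie between -0.05 and 0.13, and neuronal markers alone cross the dotted lines.

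The knockdown targets differed between the libraries. DICER1 was at 15.7 in the denominator, 5.72 in the first numerator and 24.0 in the second, where the level does not separate the transgene from the gene itself. DROSHA was at 23.3, 21.4 and 6.72. Among markers of the labelled line and its epithelial kin, 7 of 9 were measured, with KRT8, KRT18, EPCAM and VIM among them, and their summed level was 415.3, 514.3 and 357.1. VIM, an intermediate filament gene, made up most of that sum, at 263.5, 368.9 and 234.9. The median log2 fold change of the 7 was -0.0057 in the first comparison, with 3 above 0, and -0.25 in the second, with 2 above 0. PAX2 and LHX1 of that list were not analysed here. KRT19, a keratin, was the only one past 2-fold, at -1.07 in the second comparison. No listed marker of fibroblasts, endothelium or immune cells was analysed here.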

How the data were processed

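Poly(A) RNA was sequenced in 3 libraries, each the only one of its group. The authors deposited 1 table for the whole series, with levels in 3 unnamed columns (unit not stated) and log2 fold changes in 2. Tools listed without roles, per the submitters' processing notes, are Cuffdiff 2.1.1, Cufflinks, TopHat2 2.06, SAMtools and CASAVA 1.8.2, with the build hg19. Recomputed log2 ratios, with 1 added to each level, lay within 5e-12 of the authors' deposited ones in all 12040 genes. The smallest denominator level was 1.0005, so genes at or below 1 there were not analysed. The table holds no counts, and depth is unknown. Members and lists were chosen with earlier results of these data known, and the motifs and miRNAs from general knowledge after the data were seen. Named genes were all members, both knockdown targets, the ends of each list and the 3 genes nearest to the member with the largest fold change. Transcripts came from GENCODE release 29 (GRCh38, the longest coding sequence per gene), and promoters and miRNAs from RefSeq (GRCh38.p14). Their coordinates are not of the build in the notes. The sequence of KLF10 is not printed. Computation used Python 3.11.15 with pandas 2.3.3 and NumPy 2.4.6. The fold change calculation was checked on simulated levels and returned the fold changes put in. No significance test was run. Alternatives were other added constants, re-centring, a minimum mean level of 5, a 1.5-fold bar and, added later, a GC adjustment.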

Additional observations from a re-analysis of the deposited data

How the results depend on the processing

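Of the members' counts past 2-fold, 0 in each comparison, that of the second became 1 with 0.1 added to the levels, where the share of all genes past it also went from 0.831% to 1.86%. A bar of 1.5-fold gave 1 for the first (2.17% of all genes) and 1 for the second (5.07%). Counts of both comparisons stayed at 0 with 5 added, after re-centring, with a minimum mean level of 5 (6 members left) and after the GC adjustment. Between the numerators, JUND was past 2-fold at 1.21 but not after the GC adjustment, at 0.84. Member medians moved by less than 0.1 in every alternative run, and the second turned from -0.02 to 0.03 with the minimum mean level. Of 84 values of single members under alternatives, 11 moved by 0.1 or more and 3 changed sign. These were KLF10 in the first comparison after re-centring, and IER2 in the first (-0.11) and EGR1 in the second (0.01) after the GC adjustment. The cause was not tested. No paired analysis was possible because each group has 1 library.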
